A study of Mus musculus with 9 samples.

Results

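Grin1, Dlg2 and Tanc2 encode a receptor subunit and a pair of scaffold proteins of the excitatory synapse, and each has a cassette exon in the list of exons that differ in mice without Mbnl2, a splicing regulator of the muscleblind family. The 3 genes were chosen by symbol, with their splicing values known, out of 4883 genes that have a called exon or a binding peak. They hold 3 of the 290 cassette exons in the combined exon table, 18 of 10407 Mbnl2 binding peaks and 0 of 557 mutation sites. RNA sequencing of polyA RNA compared the hippocampus of 3 Mbnl2 ΔE2/ΔE2 mice, homozygous for a deletion named ΔE2, with that of 3 wild-type mice. All 6 were females of 2 to 3 months, and the strain was a mix of C57BL/6 and 129 SvlmJ in both genotypes. Binding was mapped in 3 libraries of wild-type female hippocampus (11 to 12 weeks, the same mixed strain) by CLIP, in which RNA is crosslinked to the protein in tissue, pulled down with it and sequenced as short tags. For these 3 the series' design text gives BL6 as the strain and brain as the tissue, and which wording holds could not be settled here. No knockout CLIP library and no control library were analysed here.

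The NMDA receptor is a glutamate-gated cation channel of excitatory synapses, known in the hippocampus for its part in synaptic plasticity, and Grin1 encodes the GluN1 subunit that every such receptor contains. Dlg2 encodes PSD-93, a membrane-associated guanylate kinase scaffold that binds NMDA receptor subunits and other proteins below the synaptic membrane. Tanc2 encodes a large postsynaptic scaffold with ankyrin and tetratricopeptide repeats. Muscleblind proteins bind RNA and are known to repress many exons when they bind upstream of or within them and to promote inclusion when they bind downstream.

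The RNA-seq libraries held 8299323 to 21705237 read pairs in the knockout and 18148581 to 27844309 in wild type. The CLIP libraries yielded unique tags numbering 159144, 209430 and 334857, so 1 tag equals 6.28, 4.77 and 2.99 tags per 1000000 unique tags (CPM). Between 14.5% and 16.1% of the tags of a library lay in listed peaks. Of the tags of libraries 1, 2 and 3, 21.6%, 27.9% and 20.1% had the same start and end as a tag of another library. The authors' summary sheet lists the CLIP libraries as biological replicates and the design text gives 3 mice, but no label ties a library to an animal. Summed CPM at peaks of marker genes was 2176 ± 459 for pyramidal and granule neurons (6 of 8 markers with a peak), 2179 ± 509 for oligodendrocytes (4 of 6) and 776 ± 112 for astrocytes (5 of 6; SD, n = 3 libraries each). Of the pyramidal and granule neuron sum, 1490 CPM came from Snap25, so that sum rests mainly on this gene. Interneuron markers gave 202 ± 21.5 CPM (3 of 5 with a peak). All 5 microglial markers were without a peak. Choroid plexus markers gave 157, 1055 and 299 CPM in libraries 1, 2 and 3, nearly all from Ttr, and whether such tissue differed between libraries in a way that touches the 3 genes was not tested. CLIP tags of bulk tissue count binding, RNA abundance and the number of expressing cells together, and fewer cells of a type and less RNA per cell cannot be told apart.

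The first question is how the 3 exons differ between genotypes, and these values, which chose the genes, are given as a description with no test. All 3 exons were read as more included in the knockout hippocampus. In the authors' deposited table the change of inclusion had a size of 0.328 for Dlg2 (false discovery rate, FDR, 4.12e-36), 0.168 for Grin1 (FDR 2.13e-21) and 0.164 for Tanc2 (FDR 0.00416), each with a negative sign. The change is the difference between genotypes in the fraction of transcripts that hold the exon. Values per animal were not used here, because the change is given per comparison of genotypes.

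The sign rests on a reading of the tables, since no file names the genotype behind it. Over 151 events with RNA-seq reads, the authors' condition B held 0.695 times the reads of condition A, and the knockout libraries held 0.705 times the junction-spanning fragments of the wild-type libraries. Condition A was therefore read as wild type and a negative change as more inclusion in the knockout. Muscleblind events did not follow the depth, with 199 reads in B and 110 in A for the 54 nt exon of Mbnl2, 523 and 293 for its 36 nt exon and 75 and 56 for the 54 nt exon of Mbnl1, so the targeted gene had more reads where the knockout was read. Reads of the deleted part of Mbnl2 were not analysed here. The 54 nt exons of Mbnl2 and Mbnl1, known to be repressed by muscleblind proteins, had changes of -0.393 and -0.300 in the authors' deposited table and are more included in the knockout under the same reading. If the reading were wrong, the 3 directions would turn over together.

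The Grin1 exon lies on chromosome 2 (25166863 to 25166925, mm9, minus strand) and has 63 nt, or 21 codons. It is the alternative exon of the extracellular amino-terminal domain of GluN1, whose presence is known to change the receptor's sensitivity to protons and zinc. The Dlg2 exon lies on chromosome 7 (99569142 to 99569183, plus strand) and has 42 nt, or 14 codons. The Tanc2 exon lies on chromosome 11 (105775355 to 105775384, plus strand) and has 30 nt, or 10 codons. All 3 are shorter than the median of 75 nt over the 290 exons, and all 3 have a length divisible by 3, so inclusion adds codons without a shift of the reading frame. The same holds for 212 of the 290 exons (73.1%), so a frame-keeping length is the usual case in this list.

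Against the other called exons, Dlg2 had a large change and the other two had moderate ones. Among the 209 exons called by RNA-seq, the size of the Dlg2 change ranked 29, that of Grin1 126 and that of Tanc2 134, and the median size was 0.184. By FDR, which also depends on the reads behind an exon, Dlg2 ranked 3, Grin1 13 and Tanc2 102 of the 209. Calls by RNA-seq make up 72.1% of the combined table (35.5% of it more included in the knockout), which holds only exons called by RNA-seq or by the splicing array, so the call of all 3 members says nothing about them as a group.

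The authors' splicing array gives a second readout for Grin1 and Tanc2, while Dlg2 has no array score. The array columns are headed brain, where RNA-seq used hippocampus, so the readouts may differ in tissue. In the authors' deposited table the separation score, a measure of the shift between the form with and the form without the exon, was -2.38 for Tanc2 and -0.88 for Grin1, both with a q-value listed as 0. The Tanc2 score was the largest in size among the 123 exons called by the array, where the median size was 0.66, and Grin1 ranked 36. The array called 62.4% of the 197 exons with a score, and 32.0% of the 197 were called in the direction of more inclusion. For the 42 exons called by both platforms the sign agreed in 42, Grin1 and Tanc2 among them. The combined table gives each exon a single direction, so exons called in opposite directions may have had no place in it. The count is therefore no measure of agreement between platforms. For Grin1 and Tanc2 the array scores there also have the opposite sign to those of the array sheet. Tanc2 thus stood first by array score and near the middle by change of inclusion.

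**Figure D1:**
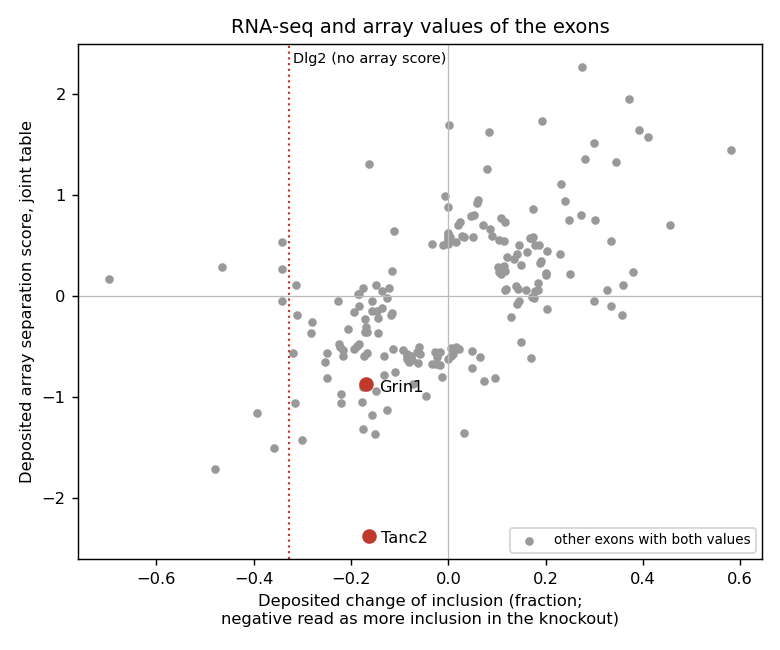
Each point is 1 exon with a deposited change of inclusion (x axis, fraction of transcripts) and a deposited array separation score (y axis, no unit), with Grin1 and Tanc2 in red and the other exons in grey. The dotted line marks the Dlg2 change of -0.328, which has no array score, and Tanc2 has the lowest score, -2.38, at a change close to that of Grin1.

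The array brightness listed with these scores moved mainly in 1 of the 2 forms for Grin1. For Tanc2 both forms moved, 1 of them more. For Grin1, the authors' deposited table gives 2157 in B and 1112 in A in the columns headed skip, a ratio of 1.94, and 6052 in B and 6444 in A in the columns headed incl, a ratio of 0.939. For Tanc2, the authors' deposited table gives 1461 and 700 in the columns headed skip, a ratio of 2.09 for B over A, and 763 and 1043 in those headed incl, a ratio of 0.732. Read by those headings alone, skipping would be higher in B for both genes, which goes against the negative change of inclusion. Across the 146 events with both readouts, however, the share of brightness in the incl columns ran opposite to the share of RNA-seq inclusion reads (Spearman's rho across events -0.602 in A and -0.679 in B, a description over events that share libraries). The headings were therefore not used to assign forms, and for both genes the form in the skip columns was brighter in B and that in the incl columns dimmer. No error is given for these intensities.

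By a fixed rule of likeness, the distance between exons in change of inclusion and array score after each is divided by its SD over the 195 exons with both, the exons nearest to Grin1 were the 45 nt exon of Exoc1, a subunit of the exocyst, at 0.0546 SD and the 108 nt exon of Ep400, a chromatin remodeller, at 0.134 SD. The Exoc1 exon had a change of -0.176 and a score of -0.91 in the authors' deposited table. Both the Exoc1 and the Ep400 exon were called by the array alone. The Exoc1 change is listed without an FDR and that of Ep400 with an FDR of 0.0862. Nothing lay as near to Tanc2, whose nearest exons were the 37 nt exon of Add1, a membrane skeleton protein, at 1.36 SD and the 60 nt exon of Tom1l2, a trafficking adaptor, at 1.42 SD. Both had about the same change as Tanc2 and smaller scores in the authors' deposited table, -1.37 for Add1 and -1.32 for Tom1l2.

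The second question is where Mbnl2 bound around the exons, a measure from wild-type CLIP libraries that are not part of the splicing contrast. Earlier counts of such tags were known when the genes were chosen, so the tests below are not independent of that choice. Dlg2 and Tanc2 had most of their nearby tags upstream of the exon, and Grin1 had few tags near the exon and a group of tags far upstream. Tags were assigned by their centre, on the strand of the gene, within 1000 nt of either side.

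Upstream of the Dlg2 exon, libraries 1, 2 and 3 held 1, 2 and 4 tags, and downstream they held 0, 0 and 1. Each library thus had more tags upstream, and the upstream level was 9.26 ± 2.84 CPM against 0.995 ± 1.72 CPM downstream (SD, n = 3 libraries). With libraries pooled, 7 of 8 tags (87.5%; 95% exact Clopper-Pearson interval 47.3 to 99.7%) lay upstream, and a two-sided exact binomial test against an even split gave p = 0.0703 and 0.164 after Benjamini-Hochberg adjustment over the 77 exons with at least 6 tags. The adjusted threshold of 0.05 was passed by 27.3% of those exons, 9.09% with more tags upstream, and Dlg2 was not among them at this depth. Of its 7 upstream tags, 5 lay within 150 nt of the exon, in all 3 libraries (1, 2 and 2). Libraries 1 and 2 each held a tag with the same ends, centred 4.5 nt upstream and spanning the upstream edge of the exon. For library 1 this was its only upstream tag, so its side rests on that tag alone. Library 3 held 1 tag centred in the exon.

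Tanc2 had the most tags of the 3 near its exon, and they were unevenly spread over libraries. Libraries 1, 2 and 3 held 4, 0 and 4 tags upstream and 1, 0 and 2 downstream, which is 12.4 ± 12.6 CPM upstream and 4.09 ± 3.54 CPM downstream (SD, n = 3). Library 2 held none on either side, where a count of 0 still allows up to 14.3 CPM, and libraries 1 and 3 had more upstream. Pooled, 8 of 11 tags (72.7%; 39.0 to 94.0%) lay upstream, a difference from an even split that was not past the threshold (exact binomial p = 0.227, adjusted p = 0.335). Within 150 nt upstream there were 5 tags (1, 0 and 4), 1 of them centred 11.5 nt from the exon, and none lay within 150 nt downstream. Intervals and limits reflect counting error alone, and the intervals on pooled tags leave out the spread between libraries. Tags are unique, so PCR copies do not count as separate molecules.

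Grin1 showed another layout. Within 1000 nt, all 5 tags came from library 3, with 1 upstream, 39 nt from the exon, and 4 downstream, 708 to 934 nt away, so this window says little about the other libraries. The upstream share was 20% (0.505 to 71.6%; exact binomial p = 0.375), and with fewer than 6 tags the exon was not in the adjusted family. Farther out all 3 libraries had tags, with 3, 5 and 4 tags between 1500 and 2000 nt upstream and 2, 3 and 2 tags beyond 2000 nt, near the outer end of the upstream constitutive exon. The event had no tag of libraries 1 or 2 downstream of the cassette exon.

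**Figure D2:**
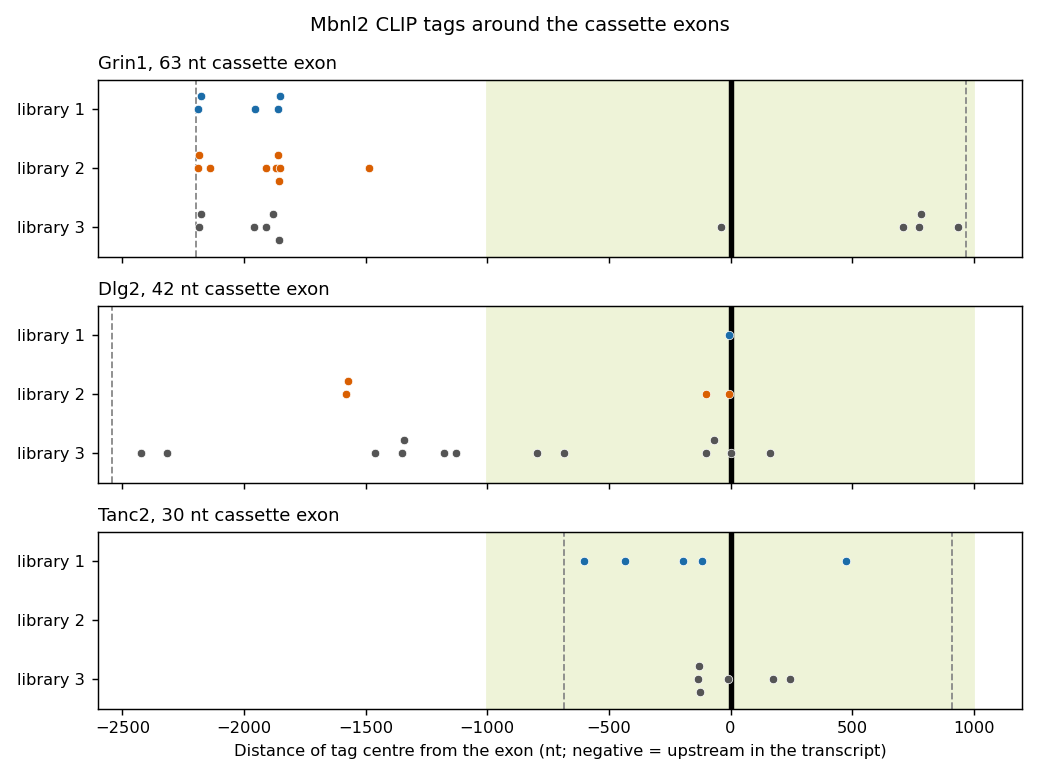
Each dot is 1 CLIP tag, placed by the distance of its centre from the cassette exon (x axis, nt, negative upstream in the transcript) and split by library (rows); shading marks the 1000 nt windows, dashed lines the outer ends of the constitutive exons, and 1 downstream tag of Dlg2 at 7057 nt is outside the axis. Dlg2 and Tanc2 have tags next to the upstream edge of the exon, and Grin1 has 12 tags of all 3 libraries between 1500 and 2000 nt upstream.

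The far Grin1 tags included a called peak, the only one of the 18 that lies between the outer ends of the constitutive exons of its event. The peak at chromosome 2, 25168788 to 25168790, is 1864 nt upstream of the exon and had 2, 4 and 2 tags in libraries 1, 2 and 3, or 12.5 ± 6.56 CPM (SD, n = 3). These tags overlap the 3 nt peak and none has its centre in it. The authors class it as 3'UTR although it lies inside the event. Of all 290 events, 22.1% hold a peak between those ends, and 11.7% of exons have a peak within 1000 nt, which none of the 3 has.

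All tags were then counted out to the ends of the constitutive exons. This range was chosen after seeing the tags, so no p-value is given for the 3 genes. The count gave more tags for Dlg2 and Grin1 and the same 11 for Tanc2, whose event ends within 1000 nt on both sides. For Dlg2, libraries 1, 2 and 3 held 1, 4 and 11 tags upstream and 1, 0 and 1 downstream, although the downstream side is longer (7067 nt, against 2544 nt upstream). That is 6.29 tags per kb upstream and 0.283 per kb downstream, and 88.9% of the tags lay upstream where length alone gives 26.5%. Most of the Dlg2 tags came from library 3, and without it 5 of 6 tags lay upstream. For Grin1, libraries held 5, 9 and 7 tags upstream and 0, 0 and 4 downstream, and 84.0% lay upstream where length gives 69.4%. Library 3 held all 4 downstream tags of Grin1, and without it all 14 tags lay upstream. For Tanc2, 72.7% lay upstream where length gives 42.9%.

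Over the whole list, the side with more tags was counted by direction of the change, and the difference between directions was not tested here. Of the 37 tested exons more included in the knockout, 19 had more tags upstream and 18 more downstream, and of the 40 less included, 11 and 28 (1 was equal). The median upstream share was 61.3% for the exons more included and 25% for those less included, and Dlg2 and Tanc2 are among the 37. Tanc2 ranked 32, Dlg2 55 and Grin1 78 of 290 exons by tags within 1000 nt, where the median exon had 2.

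**Figure D3:**
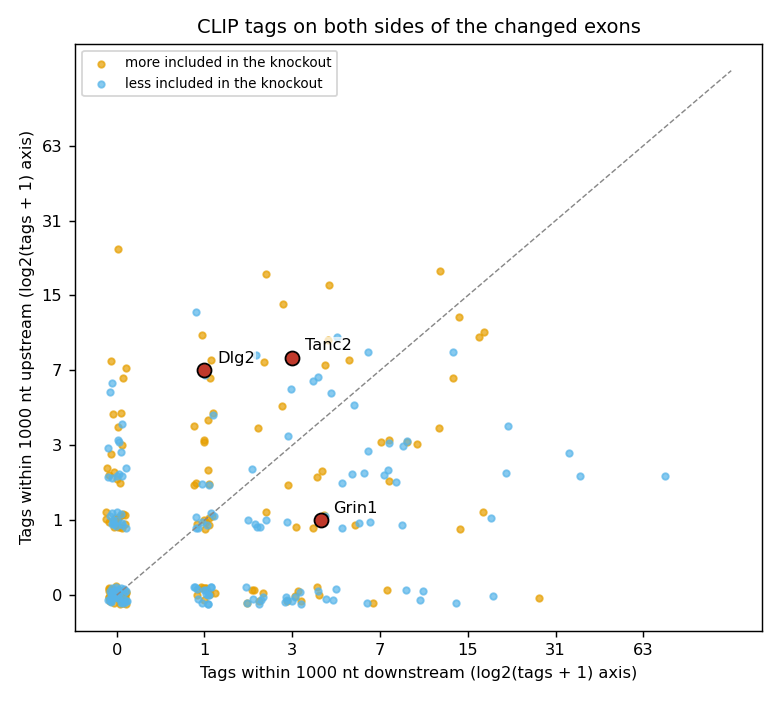
Each point is 1 of the 290 exons, with CLIP tags of 3 pooled libraries within 1000 nt downstream (x axis) and upstream (y axis), both on a log2(tags + 1) axis and with a small random shift of the unnamed points so that equal values can be seen. Dlg2 (7 upstream, 1 downstream) and Tanc2 (8 and 3) lie above the dashed line of equal counts, and Grin1 (1 and 4) lies below it.

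The third question is where else on these transcripts Mbnl2 bound. Most peaks of the 3 genes were in 3' untranslated regions, away from the cassette exons. Of the 18 peaks, which the authors called on the 3 libraries together and whose heights and classes are theirs, 13 were classed 3'UTR, 3 intron and 2 coding, and over all peaks 55.2% were classed 3'UTR. In 17 of the 18 each library had a tag, as in 64.2% of all peaks, and heights ran between 6 and 24 tags where the median peak had 6. The exception was a Dlg2 intron peak with 0, 3 and 4 tags. Presence of peaks is part of how the genes were chosen, so the values that follow are a description.

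Grin1 had 3 peaks. Its tallest, in the 3'UTR (chromosome 2, 25147124 to 25147128, height 20), had 31.4, 19.1 and 32.8 CPM in libraries 1, 2 and 3, or 27.8 ± 7.56 CPM (SD, n = 3). A coding peak of height 16 lay 5411 nt upstream of the cassette exon (25172334 to 25172338) with 31.4, 28.6 and 14.9 CPM, or 25 ± 8.83 CPM. All 3 libraries had tags at each Grin1 peak, with the lowest level at the coding peak in library 3 and at the 3'UTR peak in library 2. Over its peaks, which cover 13 nt, Grin1 had 75.4, 66.8 and 53.8 CPM, which placed it at rank 564 of 4800 genes with a peak. Counted by tag centre instead of any overlap, the mean was 18.7 CPM, against 65.3 CPM, as the peaks are shorter than a tag.

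Dlg2 had 7 peaks, 5 of them within 2411 nt of the 3'UTR. The tallest peak of the 3 genes was there (chromosome 7, 99595516 to 99595526, height 24), with 8 tags in each library, or 50.3, 38.2 and 23.9 CPM and a mean of 37.5 ± 13.2 CPM (SD, n = 3). In the authors' deposited table it overlaps a low-complexity repeat over 0.273 of its length. The counts were equal and the depths were not, so its CPM was highest in the shallowest library and lowest in the deepest. The intron peaks of Dlg2, of height 7 each, lay 1240 and 1100 kb upstream of the cassette exon in this very long gene. Its peaks cover 100 nt and summed to 132, 105 and 89.6 CPM, rank 302 of 4800 genes.

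Tanc2 had 8 peaks, a number reached by 2.48% of genes with a peak, and none was tall. Heights were 6 to 10 tags, and the highest, in the 3'UTR at chromosome 11, 105790045, had 18.9, 19.1 and 8.96 CPM, or 15.6 ± 5.78 CPM (SD, n = 3). An intron peak 169 kb upstream of the cassette exon had 2, 3 and 3 tags and lies wholly in an annotated DNA repeat, and a coding peak 9005 nt downstream had 2, 2 and 4. Its peaks cover 73 nt and summed to 94.3, 115 and 65.7 CPM, rank 382, with a mean of 33.5 CPM by tag centre, against 91.5 CPM by overlap. The whole stretch between the first and last 3'UTR peak, 5234 nt in Tanc2 and 2411 nt in Dlg2, held 201 ± 19.0 CPM in Tanc2 and 145 ± 15.7 CPM in Dlg2, so tags were spread beyond the listed peaks in both. The order of the 3 genes by summed CPM, 109 ± 21.4 for Dlg2, 91.5 ± 24.6 for Tanc2 and 65.3 ± 10.9 for Grin1, was not clear of the spread for the neighbours, its sizes depend on how tags are assigned, and it mixes binding with RNA abundance.

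**Figure D4:**
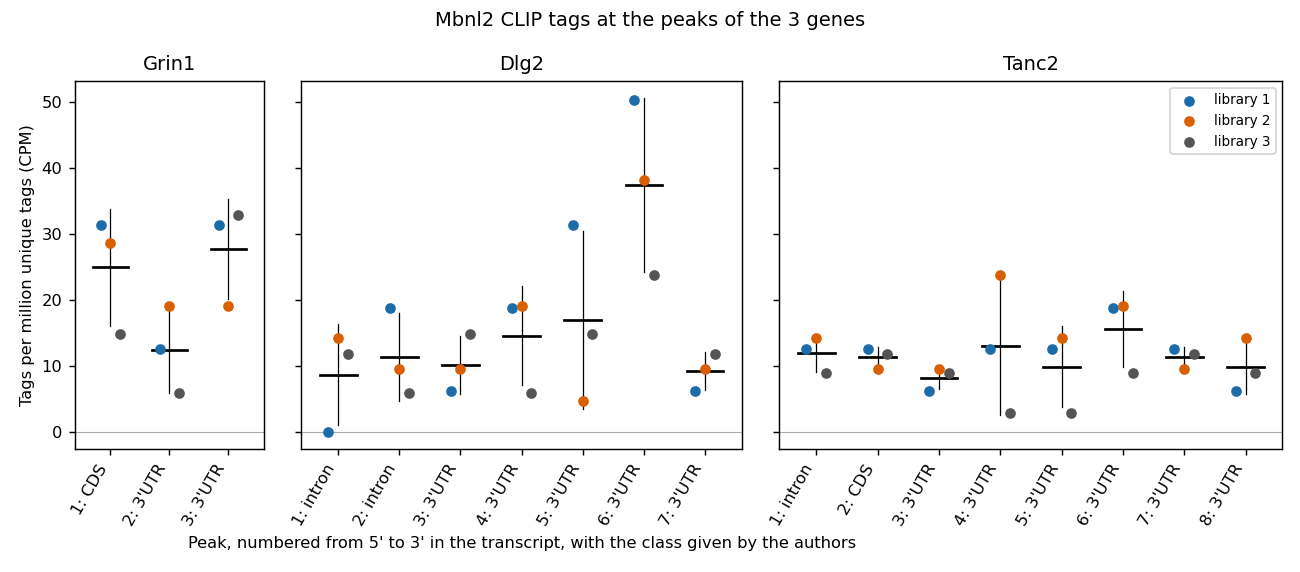
CPM (tags per 1000000 unique tags, y axis) at each of the 18 peaks, numbered from 5' to 3' in the transcript with the authors' class, with dots for the 3 libraries, a bar for the mean and a line for 1 SD. The Dlg2 3'UTR peak with a mean of 37.5 CPM is the highest, and 1 dot lies at 0, library 1 at the first Dlg2 intron peak.

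Mutation sites, positions where tags carry recurrent crosslink errors and which place binding more finely than peaks, were absent from the 3 genes in the authors' list of 557. The lowest number of tags at any listed site was 4 and the median 40, and peaks here held 6 to 24. Among the 979 genes whose highest peak has 10 to 24 tags, the range of the highest peaks of Tanc2, Grin1 and Dlg2, 33 (3.37%) had a site, so a gene with no site was the usual case.

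Set beside other genes of the same synaptic functions, in lists chosen with earlier results known, Grin1 was the 1 of 7 NMDA receptor subunit genes with a called exon. Of that list 4 had a peak, led by Grin2a at 98.8 ± 23.6 CPM (SD, n = 3), which encodes a glutamate-binding subunit, then Grin1, then Grin2b, another such subunit, at 52.6 ± 6.32 CPM, and Grin2c, Grin2d and Grin3b had none. All 9 AMPA and kainate receptor subunit genes had a peak and none a called exon, with Gria3 at 188 ± 15.4 CPM, Gria1 at 137 ± 19.2 CPM and Gria2 at 119 ± 27.5 CPM as the highest.

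Of the 11 membrane-associated guanylate kinase genes, 10 had a peak and 2 a called exon, Dlg2 and Magi1. Dlg2 had the highest summed CPM of that list, followed by Magi2 at 100 ± 5.86 CPM and Dlg3 (SAP102) at 78.8 ± 14.4 CPM. The 84 nt exon of Magi1, a scaffold of cell junctions, had a change of -0.195 and an array score of -0.53 in the authors' deposited table. It was called by the array alone, and its change is listed without an FDR. Of the 22 other postsynaptic scaffold genes, 14 had a peak and 3 a called exon, namely Tanc2, Dlgap1 and Kalrn, of which Kalrn was in the gene list only. The 30 nt exon of Dlgap1, whose product links guanylate kinase scaffolds to Shank proteins, had a change of 0.239 in the authors' deposited table (FDR 4.98e-29) and was read as less included in the knockout, opposite to Tanc2. Dlgap1 had 106 ± 28.7 CPM at its peaks and Cnksr2, a scaffold of Ras signalling, 91.0 ± 3.96 CPM, beside the 91.5 ± 24.6 CPM of Tanc2.

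Among 17 genes of NMDA receptor signalling, 13 had a peak and 3 a called exon, all more included in the knockout. In the authors' deposited table the 18 nt exon of Src, a tyrosine kinase, had a change of -0.208 (FDR 8.94e-05) and the 45 nt exon of Camk2b, a kinase subunit, -0.0336 with an array score of -0.68. The Camk2b exon was called by the array alone. Camk2a, the partner kinase subunit, had 351 ± 82.8 CPM at its peaks and no called exon, and Camk2b had 253 ± 96.8 CPM. In all, 9 of 66 synaptic genes had a called exon, 7 of them more included and 1 less included, and 50 had a peak. The share of all expressed genes that had a peak or a called exon was not computed here. These counts, and those of each list, therefore have no background and do not show that synaptic genes were bound or changed more often. Among those 50, 8 had a called exon (16%), against 3.92% of all 4800 genes with a peak, and without the 3 members it was 5 of 47 (10.6%). The lists were chosen with these calls known, so the shares are a description.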

How the data were processed

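The samples were grouped by their titles into 3 Mbnl2 knockout RNA-seq, 3 wild-type RNA-seq and 3 wild-type CLIP libraries. Per the submitters' processing notes, reads were handled with TopHat 1.3.2 and Novoalign on mm9, and settings were not given. Counts of read pairs, tags, peak heights and mutation sites were deposited by the authors, per the file headers. The change of inclusion was deposited with an FDR by the authors, who kept exons with a junction coverage of at least 20, a change of 0.1 or more and an FDR up to 0.05. Array intensity, separation score and q-value columns were deposited by the authors, and the array normalization is not stated in the sources used here. Each p-value of a peak was deposited by the authors at a limit of 0.01 after Bonferroni correction. The tag files' score column, deposited by the authors, was not used.

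From these, tags on a feature's own strand were counted, by any overlap for peaks and by the tag centre around exons, and scaled to 1000000 unique tags (CPM). A tag overlapping neighbouring peaks counted in each. Exon ends came from the combined table. Upstream and downstream tags were compared by exact binomial tests over all exons with at least 6 tags, with Benjamini-Hochberg adjustment (scipy 1.17.1, pandas 2.3.3, numpy 2.4.6, Python 3.11.15), a step tested on simulated data. The planned inclusion on pooled reads was not given, because reads per form of the 3 exons were not used here. Every row of the 3 genes was named, with list genes that had a called exon or one of the 3 highest summed CPM of their list, and the 2 nearest exons by likeness. The values of 1 list gene are not reported here. The genes and lists were chosen with earlier results of these data known. Alternatives were other windows, assignment rules, scalings and limits, and leaving out each library.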

Additional observations from a re-analysis of the deposited data

How the results depend on the processing

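More tags lay upstream of the Dlg2 and Tanc2 exons in every window, assignment rule and left-out library tried, which was not so for Grin1. These settings reuse the same few tags, so they are not independent checks. Tanc2 had 8 tags upstream and 3 downstream at 1000 nt, at 2000 nt and by any overlap. Library 2 held none of them, so leaving it out could change nothing. No setting took Tanc2 past the threshold. The Grin1 upstream share of 20% became 100% within 500 nt and within 250 nt (1 tag), 73.7% within 2000 nt and 84.0% out to the constitutive exons, a range chosen after seeing the data, with 75.0 to 100% there when 1 library was left out. Within 1000 nt the Grin1 share was 20% without library 1 or 2, and library 3 held all its tags. The Dlg2 share passed the threshold at 2000 nt (93.3%, adjusted p = 0.00510 in the exact binomial test, where 32.5% of exons passed, 11.7% with more upstream), a pass that rests on library 3, without which 5 tags remain, under the minimum of 6. Out to the constitutive exons it was 88.9% (93.8%, 85.7% and 83.3% without libraries 1, 2 and 3). Leaving out 1 library gave upstream shares of 83.3 to 100% for Dlg2 and 66.7 to 80.0% for Tanc2 within 1000 nt. Called exons numbered 21 of 77 tested at 1000 nt, 13 of 57 at 500 nt, 12 of 38 at 250 nt and 39 of 120 at 2000 nt. At 1000 nt they were 18 of 62, 12 of 57 and 8 of 41 without libraries 1, 2 and 3. Out to the constitutive exons they were 40 of 172, tested there against a split scaled to length in place of an even split. Summed CPM with tags assigned by centre was 18.7 for Grin1, 76.5 for Dlg2 and 33.5 for Tanc2, and per 1000000 tags in peaks 419, 698 and 584. Leaving out 1 library gave 60.3 to 71.1 for Grin1, 97.3 to 119 for Dlg2 and 80.0 to 104 for Tanc2. Synaptic genes in the RNA-seq list numbered 3 at a change of at least 0.2, against 6 as deposited, and those with a peak 20 at a height of at least 10, against 50. The halving of inclusion reads was not run, for want of reads of these exons. No paired analysis was possible because the splicing values come as 1 comparison without values per animal and the CLIP libraries form 1 group. With 0 to 4 tags per exon side in a library within 1000 nt, differences between libraries at a single exon were not detectable at this depth.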

Other observations

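Mbnl2 transcripts carried tags around their own cassette exons, which were chosen for mention after their values were seen. Its 54 nt exon had 19 tags within 1000 nt upstream and 12 downstream, and its 95 nt exon had 15 and 3, both in all 3 libraries upstream (3, 5 and 11 tags, and 4, 2 and 9). The 54 nt exon of Mbnl1 had 8 upstream and 5 downstream. The share at the 95 nt exon passed the exact binomial test after adjustment (p = 0.0286 adjusted), and those at the 54 nt exons did not (0.393 for Mbnl2 and 0.678 for Mbnl1 in the same exact test). The 36 nt exon of Mbnl2 had 3 tags upstream, all from library 3, and 6 downstream, with 0.611 after adjustment in the same exact test. Its downstream window overlaps the upstream window of the 95 nt exon. A tag there counts for both exons, so those counts are not separate.

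In the array sheet, the score and the share of brightness in the incl columns moved in opposite directions between conditions in 456 of 463 events, while the RNA-seq score and the share of inclusion reads moved together in 141 of 151. The Grin1 and Tanc2 array values carry this, and their scores have the opposite sign in the combined table (0.879 and 2.38 in the array sheet of the authors' deposited table, -0.88 and -2.38 in the combined one).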
